A study of Mus musculus with 6 samples.

Results

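Elastic fiber and microfibril genes were examined in cancer-associated fibroblasts (CAFs) of mouse mammary tumors, as the 10 genes Eln, Fbn1, Fbn2, Fbln1, Fbln2, Fbln5, Mfap4, Mfap5, Emilin1 and Ltbp4. They were chosen by symbol from the 27179 genes of the count table, and all 10 were detected well enough to be tested. The 6 libraries were RNA-seq profiles of CD34 negative (CD34-) and CD34 positive (CD34+) fibroblasts sorted from tumors 1, 2 and 3 of the raGFP-Wnt1 strain, so each tumor gave 1 library of each fraction. In this strain every mouse carries both a Pdgfra reporter, in which a nuclear green fluorescent protein marks Pdgfra-expressing cells, and a Wnt1 transgene driven by the mouse mammary tumor virus (MMTV) promoter, which is active in mammary epithelium. GFP+ cells were sorted, so both fractions were restricted to cells with Pdgfra reporter activity, and neither had been treated. Ages of the tumor-bearing mice are not given in the sources used here.

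Elastic fibers give skin, vessels, lung and other stretching tissues their recoil. Tropoelastin, the product of Eln, is laid down on a scaffold of fibrillin microfibrils, guided there by fibulins and microfibril-associated proteins, and is then crosslinked by lysyl oxidases. Microfibrils also hold latent TGF-β through its binding proteins, so the same scaffold stores a growth factor. Fibroblasts and vascular smooth muscle cells are the usual makers of these proteins.

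Library totals ranged from 16238059 to 86609267 counts, and the 10 genes together took 1.31% to 1.62% of each library. The lowest count of any of them in any library was 2325 (Emilin1 in CD34+ CAFs of tumor 1), so counting error was small beside the spread between tumors. Cd34 itself, the gene of the sorted surface marker, stood at 79.2, 42.0 and 101.8 CPM (counts per 1000000 of the TMM-scaled library size) in the CD34- libraries and at 677.5, 562.5 and 1605 CPM in the CD34+ libraries. All 5 fibroblast markers (Dcn, Lum, Pdgfra, Col1a2 and Igfbp5) were expressed in all 6 libraries, and Col1a2, a fibrillar collagen chain, was the most abundant at 16358 to 28760 CPM. CD34- CAFs of tumor 3 stood apart, with counts in 14314 genes against 16253 to 19220 in the other libraries and with 159 genes at 0 that the other libraries expressed.

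Of the 10 genes, 3 were higher in CD34- than in CD34+ CAFs once each tumor was compared with itself: Fbln1, Mfap4 and Emilin1, by 1.68- to 2.00-fold. None of the 10 was called lower, and the values of Eln, Fbn1, Fbn2, Fbln2, Fbln5, Mfap5 and Ltbp4 did not pass the test in either fit. Without the tumor as a block, limma-voom with Benjamini-Hochberg adjustment called 0 of the 10 at an adjusted p under 0.05, beside 0.121% of all 14855 genes tested (0.0202% higher and 0.101% lower). Of the 10 genes, 2 (Fbln1 and Emilin1) had an unadjusted p under 0.05 in that fit, as had 14.3% of all genes tested. Also without the block, edgeR called 0 of the 10 and 9 of all genes, and DESeq2 called 1 (Fbln1) and 698. With the tumor number as a replicate block, limma-voom called 3 of the 10, all higher, where 8.57% of all genes were called, 4.32% higher and 4.25% lower. The same 3 were called by DESeq2 with the block and whichever tumor was left out of the blocked limma-voom fit, whereas edgeR with the block called Fbln1 and Emilin1. The median log2 fold change of the 10 genes, CD34- minus CD34+, was 0.19 against -0.03 over all genes tested, and 0.18 against -0.01 with the block. Taken within tumors 1, 2 and 3, the median difference of the 10 genes was 0.24, 0.01 and 0.46 (log2), so tumor 2 was near level. Because these are bulk samples, fewer cells of a kind and less RNA per cell cannot be told apart.

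**Figure D1:**
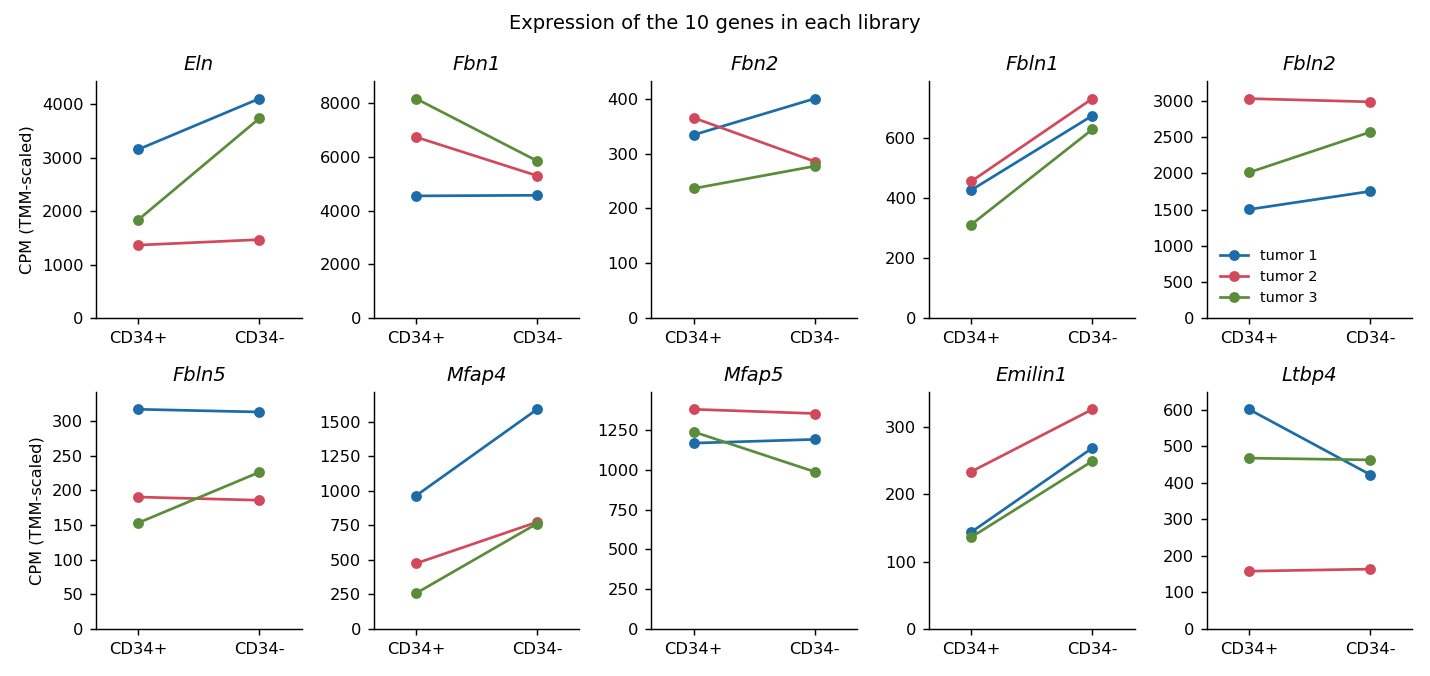
Expression of each gene as CPM scaled by TMM (linear vertical axis from 0, a separate scale for each gene) in the CD34+ and CD34- library of each tumor, with a line joining both fractions of 1 tumor. The lines of Fbln1, Emilin1 and Mfap4 rise in all 3 tumors, and the CD34- points of Fbln1 (628 to 730 CPM) lie above all its CD34+ points (311 to 455 CPM).

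Elastin and the fibrillins form the core and the scaffold of the fiber. Eln (chr5:134702595-134747368, GRCm38) stood at 4107, 1470 and 3738 CPM in the CD34- CAFs of tumors 1, 2 and 3 and at 3157, 1368 and 1842 CPM in the CD34+ CAFs. It was higher in the CD34- library of every tumor, by 0.38, 0.10 and 1.02 on the log2 scale, but the groups overlapped because tumor 2 was low in both fractions. The log2 fold change was 0.45 ± 0.44 (SE, n = 3 against 3, limma-voom adjusted p = 0.683) and 0.50 ± 0.18 with the block (limma-voom adjusted p = 0.121). Without tumor 3 the blocked value was 0.23.

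Fbn1 (chr2:125300594-125506485), the main fibrillin of adult tissues, was at 4575, 5304 and 5855 CPM in CD34- CAFs and at 4552, 6743 and 8173 CPM in CD34+ CAFs. Its tumors did not move one way, being level in tumor 1 (0.01) and lower in CD34- CAFs of tumors 2 and 3 (-0.35 and -0.48, log2), and the log2 fold change was -0.25 ± 0.27 (SE, limma-voom adjusted p = 0.713; 0.305 with the block). Fbn2 (chr18:58008623-58210572), the fibrillin best known from developing tissue, was at 400, 286 and 277 CPM in CD34- and 334, 365 and 236 CPM in CD34+ CAFs. Its log2 fold change was 0.05 ± 0.23 (SE, limma-voom adjusted p = 0.945), with a 95% confidence interval from -0.48 to 0.58. Per gene length (RPKM), Fbn1 was 12.1 to 22.4 times as abundant as Fbn2 in CD34- CAFs and 14.4 to 36.6 times in CD34+ CAFs, so Fbn1 was the major fibrillin of both fractions.

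The fibulins are secreted glycoproteins that bridge elastin, microfibrils and basement membranes. Fbln1 (chr15:85205949-85286294) encodes fibulin-1, found in elastic fibers and basement membranes, and stood at 674, 730 and 628 CPM in CD34- CAFs against 426, 455 and 311 CPM in CD34+ CAFs. The groups did not overlap, and the CD34- library was higher in all 3 tumors, by 0.66, 0.68 and 1.01 on the log2 scale. The log2 fold change was 0.79 ± 0.20 (SE, limma-voom adjusted p = 0.145) without the block, a 1.73-fold difference, and 0.79 ± 0.13 with it (limma-voom adjusted p = 0.0072). The related Fbln2 (chr6:91212460-91272540), which binds both elastin and fibrillin, was at 1752, 2987 and 2569 CPM in CD34- and 1502, 3032 and 2012 CPM in CD34+ CAFs. Fbln5 (chr12:101746565-101819119), which is needed to assemble elastin on microfibrils, was at 313, 186 and 226 CPM against 317, 190 and 153 CPM. For both genes the fractions were level in tumor 2 (-0.02 for Fbln2, -0.04 for Fbln5, log2) and most apart in tumor 3 (0.35 and 0.56). Fbln2 had a log2 fold change of 0.24 ± 0.31 (SE, limma-voom adjusted p = 0.767; 0.453 with the block), and that of Fbln5 was 0.15 ± 0.31 (0.855; 0.570 with the block).

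Mfap4 and Mfap5 encode microfibril-associated proteins of unrelated families, and Emilin1 encodes a glycoprotein at the interface of elastin and microfibrils. Mfap4 (chr11:61485431-61488708) was at 1589, 773 and 762 CPM in CD34- CAFs and at 963, 474 and 258 CPM in CD34+ CAFs. Tumor 1 was the highest in both fractions, so the groups overlapped, although within each tumor the CD34- library was higher, by 0.72, 0.71 and 1.57 (log2). The log2 fold change was 0.95 ± 0.50 (SE, limma-voom adjusted p = 0.429), and 1.00 ± 0.18 with the block (limma-voom adjusted p = 0.0099). In edgeR with the block the adjusted p was 0.0547. Leaving out tumor 3 took the blocked log2 fold change to 0.70, still called (limma-voom adjusted p = 0.0057). That smaller fit called more of all genes (2019) than the fit with every tumor did (1273).

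Emilin1 (chr5:30913387-30921279) was at 269, 326 and 249 CPM in CD34- CAFs and at 144, 234 and 136 CPM in CD34+ CAFs. The groups did not overlap, and the tumors differed by 0.90, 0.48 and 0.87 (log2). Its log2 fold change was 0.77 ± 0.24 (SE, limma-voom adjusted p = 0.205) without and 0.75 ± 0.14 with the block (limma-voom adjusted p = 0.0112). Mfap5 (chr6:122513584-122529290) showed no such shift, at 1192, 1355 and 989 CPM against 1169, 1382 and 1240 CPM. Its log2 fold change was -0.10 ± 0.20 (SE, limma-voom adjusted p = 0.851), and the 95% interval with the block ran from -0.40 to 0.18. Across the 10 genes, Fbln1 and Emilin1 were the 2 whose groups did not overlap, which 20.4% of all genes tested also showed. The sign was the same in all 3 tumors for 4 of the 10 genes (Eln, Fbln1, Mfap4 and Emilin1) and for 46.3% of all genes.

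Promoter sequences are shown for Fbln1 and Emilin1, which moved together in all 3 tumors, and for 2 relatives that moved the other way, Efemp1 (a fibulin) and Emilin2 (an emilin), whose values follow with the partner genes. They come from RefSeq (GRCm38.p6) and run 5′ to 3′ on the gene's strand from 250 bases before to 50 bases after an annotated start. The Emilin1 window lies wholly within the gene as given above (chr5:30913387-30921279), so it does not show the bases before the gene. Entries were taken for 6 of the 10 genes. Eln, Mfap4 and Mfap5 had no entry, and Fbn2 was left out of the search. Capitals mark matches on either strand to 5 motifs searched by their letters. These were the letters TGANTCA for AP-1 (N being any base), the TEAD site GGAATG, the SMAD element CAGAC, the GC box GGGCGG and the TATA box TATAAA. No 2 of the matches overlapped in the windows printed.
Fbln1, chr15:85205699-85205998, + strand: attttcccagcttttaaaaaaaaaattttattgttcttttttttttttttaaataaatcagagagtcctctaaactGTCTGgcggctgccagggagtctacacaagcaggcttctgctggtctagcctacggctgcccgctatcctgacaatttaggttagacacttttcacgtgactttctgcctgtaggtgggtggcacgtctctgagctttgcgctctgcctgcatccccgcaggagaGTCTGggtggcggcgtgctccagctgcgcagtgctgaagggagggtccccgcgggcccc
Emilin1, chr5:30913536-30913835, + strand: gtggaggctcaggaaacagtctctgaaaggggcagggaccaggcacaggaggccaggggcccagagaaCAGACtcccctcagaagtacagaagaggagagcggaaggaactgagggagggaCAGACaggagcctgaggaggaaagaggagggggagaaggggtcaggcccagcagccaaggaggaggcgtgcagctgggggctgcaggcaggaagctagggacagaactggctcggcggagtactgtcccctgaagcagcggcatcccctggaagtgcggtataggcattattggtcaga
Efemp1, chr11:28852955-28853254, + strand: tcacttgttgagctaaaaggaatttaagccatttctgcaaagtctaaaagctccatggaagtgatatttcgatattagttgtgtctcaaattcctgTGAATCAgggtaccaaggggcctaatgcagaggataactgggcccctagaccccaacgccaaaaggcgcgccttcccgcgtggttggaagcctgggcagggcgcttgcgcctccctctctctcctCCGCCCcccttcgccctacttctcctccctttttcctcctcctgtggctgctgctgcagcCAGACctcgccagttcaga
Emilin2, chr17:71311507-71311806, - strand: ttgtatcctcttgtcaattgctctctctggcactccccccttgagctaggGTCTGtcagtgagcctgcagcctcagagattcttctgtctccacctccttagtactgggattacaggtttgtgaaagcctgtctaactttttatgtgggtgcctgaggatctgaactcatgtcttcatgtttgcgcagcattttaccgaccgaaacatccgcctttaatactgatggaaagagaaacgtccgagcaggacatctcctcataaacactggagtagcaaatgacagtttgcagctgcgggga
The printed Fbln1 and Emilin1 windows each held 2 CAGAC matches and none of the other 4 motifs. Efemp1 held 1 match to the AP-1 letters (TGAATCA, with A at the free base), 1 GC box and 1 CAGAC match. The printed Emilin2 window held 1 CAGAC match. Fbln1 and Emilin2 each have a second annotated start, of which the window is not printed: that of Fbln1 (chr15:85205758-85206057) held 2 CAGAC matches and 2 GC boxes, and that of Emilin2 (chr17:71310962-71311261) held 1 TEAD match, 1 CAGAC match and 2 GC boxes. CAGAC is common, present in 49.6% of the 32851 promoters of the table, as against 7.81% with the AP-1 letters, 14.7% with the TEAD letters, 35.7% with a GC box and 13.6% with a TATA box. These matches describe letters in the windows and were not tested for binding.

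Ltbp4 (chr7:27305140-27339720) encodes a latent TGF-β binding protein that also helps to deposit fibulin-5 on microfibrils. It was at 422, 164 and 462 CPM in CD34- CAFs and at 601, 158 and 467 CPM in CD34+ CAFs. Both fractions of tumor 2 were low, and the fractions were nearly level in tumors 2 and 3 (0.05 and -0.02, log2), with a difference of -0.51 in tumor 1. The log2 fold change was -0.24 ± 0.54 (SE, limma-voom adjusted p = 0.870), and -0.16 with the block (95% interval from -0.48 to 0.17).

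**Figure D2:**
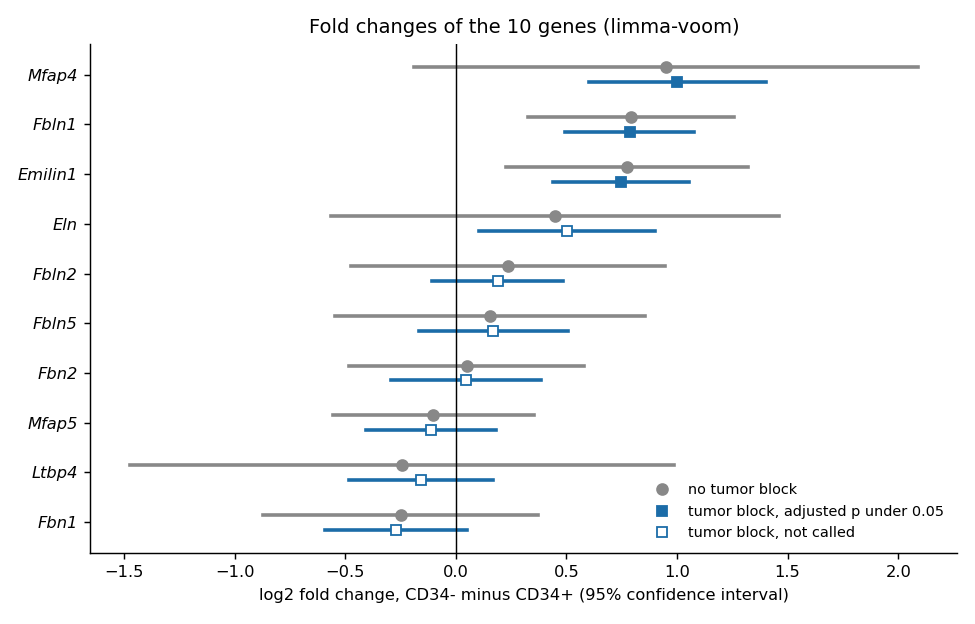
Log2 fold change of each gene, CD34- minus CD34+, with its 95% confidence interval from limma-voom without (gray circles) and with (blue squares, filled where called) the tumor block. Fbln1, Mfap4 and Emilin1 lie between 0.75 and 1.00 with the block, while the blocked intervals of Fbn1, Fbn2, Fbln2, Fbln5, Mfap5 and Ltbp4 include 0. The blocked interval of Eln (0.11 to 0.90), which is not adjusted for the number of genes, lies above 0, but Eln was not called (limma-voom adjusted p = 0.121).

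For most of these genes a larger part of the spread among libraries lay between tumors than between CD34 fractions. The sum of squares of the 6 log2 CPM values was divided into the part between tumors, the part between fractions and the rest, as a description with no test. The tumor part rests on 3 means and the fraction part on 2, which alone makes the tumor part larger, so the percents are best read beside those of all genes. Ltbp4 had 96.3% of it between tumors, Fbln2 had 90.2%, Fbln5 82.6% and Eln 75.7%. Fbln1 and Emilin1 were the reverse, with 82.6% and 65.5% between fractions and 14.0% and 30.3% between tumors. Mfap4 held both, with 57.1% between tumors and 36.9% between fractions. The median of the 10 genes was 68.4% between tumors and 13.5% between fractions, against medians of 45.5% and 20.6% over all genes tested. The highest and lowest tumor means were further apart than the 2 fractions for 8 of the 10 genes, all but Fbln1 and Emilin1. This sets the range of 3 means against a difference of 2, and its share over all genes was not counted. Over all genes tested the median gap between tumor means was 0.63 and that between fractions 0.36 (log2), against 0.68 and 0.23 for the 10 genes. Ltbp4 had the widest gap between tumor means (1.65, log2), with tumor 2 lowest, followed by Mfap4 (1.48), where tumor 1 was highest, and Eln (1.34), where tumor 2 was again lowest.

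**Figure D3:**
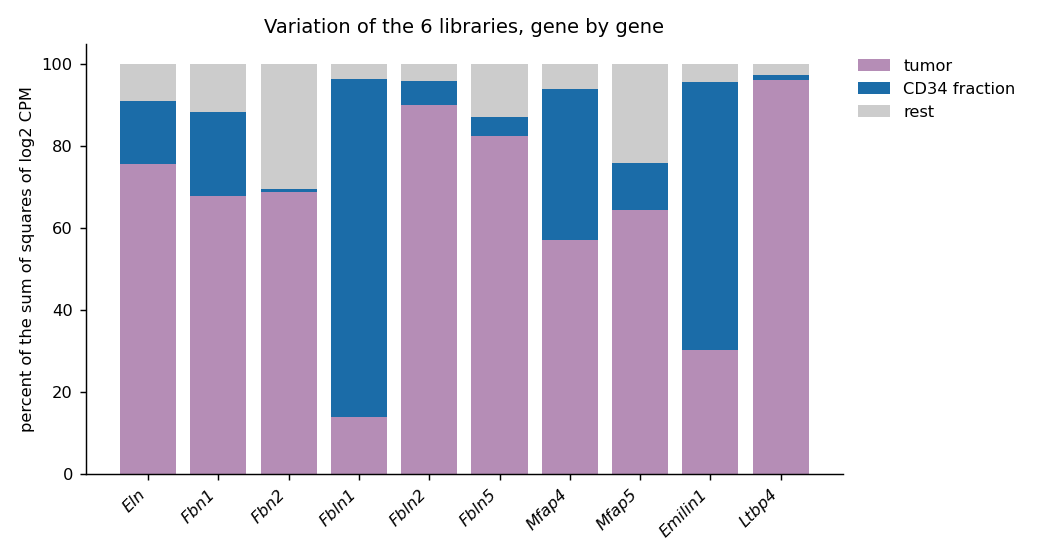
Percent of each gene's sum of squares of log2 CPM over the 6 libraries that lay between tumors, between CD34 fractions and in the rest. The fraction part is the largest for Fbln1 (82.6%) and Emilin1 (65.5%), and the tumor part is the largest for the other 8 genes. The tumor part rests on 3 means and the fraction part on 2.

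Levels were compared between genes per gene length, as RPKM. Mean RPKM over the 6 libraries ran from 864 for Mfap5, 691 for Eln, 593 for Fbn1, 531 for Mfap4 and 516 for Fbln2, through 160 for Fbln1, down to 67.7 for Ltbp4, 65.3 for Emilin1, 39.6 for Fbln5 and 30.2 for Fbn2. Within a library, Fbln2 was above Fbln1 in 6 of 6 libraries (by at least 1.95 times) and Fbln1 above Ltbp4 in 6 of 6 (by 1.11 to 7.43 times). The other neighbors in this order changed places in at least 1 library, so their order was not set beyond the spread between libraries. Summed over the 10 genes, RPKM was 4279, 3462 and 3764 in CD34- CAFs and 3456, 3310 and 3074 in CD34+ CAFs, and was higher in the CD34- library of each tumor. This depended on the length scaling. Summed as CPM, the 10 genes were at 15293, 13580 and 15756 in CD34- and 13165, 14400 and 14829 in CD34+ CAFs, lower in the CD34- library of tumor 2. As shares of the summed RPKM, Mfap4 made up 17.6% ± 6.1 (SD, n = 3) in CD34- and 11.1% ± 6.6 in CD34+ CAFs, and Fbn1 14.0% ± 2.8 against 20.2% ± 6.8. Mfap5 per Mfap4 was 0.80, 1.88 and 1.39 in CD34- CAFs against 1.30, 3.12 and 5.16 in CD34+ CAFs, higher in the CD34+ library of every tumor. Fbn1 per Eln was 0.43, 1.38 and 0.60 against 0.55, 1.88 and 1.69.

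**Figure D4:**
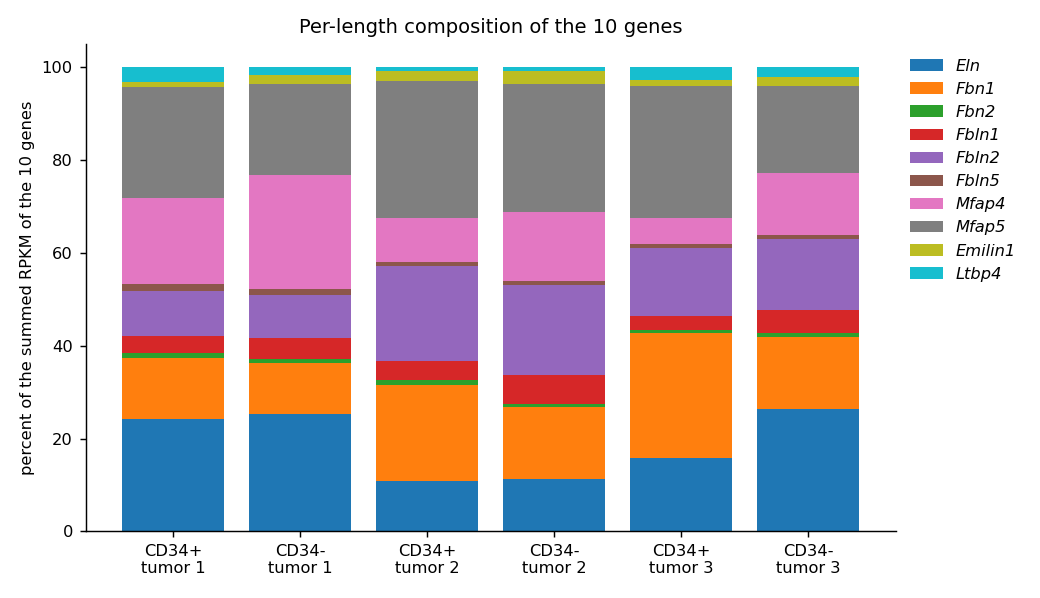
Percent of the summed RPKM of the 10 genes that each gene contributed in each library, ordered by tumor with CD34+ before CD34-. Eln makes up 11% in both libraries of tumor 2, and Mfap4 takes a larger percent in the CD34- than in the CD34+ library of each tumor.

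The genes that work with these 10 in fiber assembly were taken as 8 lists with 49 genes, of which 46 were tested (Mmrn1, Mmp7 and Elane were too low). Without the block limma-voom called 0 of the 46, with 20 at an unadjusted p under 0.05, beside 14.3% of all genes. Also without it, edgeR called 0 and DESeq2 called 8, where they called 9 and 698 of all genes. With the block limma-voom called 19, of which 11 were higher and 8 lower in CD34- CAFs, beside the 4.32% and 4.25% of all genes given above. Adjusted p-values below are from limma-voom with the block. Called genes moved in both directions in 5 of the 8 lists. Left-out tumors ended 6 of the 19 calls, those of Fbln7, Ltbp3, Loxl1, Loxl2, Adamtsl5 and Ctsa, with adjusted p up to 0.147. The other 13 were called whichever tumor was left out, in fits with fewer residual degrees of freedom. In edgeR with the block 13 of the 19 were called, and Ltbp2, Ltbp3, Loxl1, Loxl2, Adamts6 and Ctsa were not (adjusted p of 0.0579 to 0.131).

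Among the other fibulins, Fbln7 was higher in CD34- CAFs and Efemp1 and Hmcn2 were lower, out of 5 tested. Efemp1, which encodes fibulin-3, was at 15.7, 111.8 and 98.4 CPM in CD34- CAFs and at 192.4, 729.7 and 1352 CPM in CD34+ CAFs. It fell by 3.34 ± 0.21 on the log2 scale (SE, adjusted p = 7.8e-05), a wider gap than for any of the 10 genes. Hmcn2, a hemicentin, fell by 1.32 (adjusted p = 0.0029) and Fbln7 rose by 0.74 (adjusted p = 0.01). Per gene length, Efemp1 per Fbln1 was 0.039, 0.25 and 0.26 in CD34- and 0.74, 2.65 and 7.16 in CD34+ CAFs. This ratio and the ratios of relatives that follow were chosen after their values were seen, and were not tested.

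The emilins divided in the same way. Emilin2 was at 108, 75.7 and 65.3 CPM in CD34- CAFs and at 206, 324 and 550 CPM in CD34+ CAFs, with no overlap. It fell by 2.03 ± 0.31 (log2, SE, adjusted p = 0.0052), so the per-length ratio of Emilin2 to Emilin1 was 0.36, 0.21 and 0.23 in CD34- and 1.27, 1.23 and 3.58 in CD34+ CAFs. Emilin1 was thus the more abundant emilin in the CD34- libraries and Emilin2 in the CD34+ libraries. Mfap2, a microfibril protein, had a log2 fold change of -0.21 (adjusted p = 0.518).

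Of the TGF-β ligands and their other binding proteins, 3 of 6 rose and 1 fell. Tgfb1 was at 70.0, 101.5 and 96.4 CPM in CD34- CAFs and at 24.5, 44.4 and 27.4 CPM in CD34+ CAFs, a log2 rise of 1.45 ± 0.17 (SE, adjusted p = 0.0017). Ltbp2, which binds fibrillin but not latent TGF-β, was at 706, 1817 and 1296 CPM against 312, 814 and 67.8 CPM and rose by 2.21 ± 0.49 (adjusted p = 0.0247), or by 1.15 without tumor 3, and neither edgeR (adjusted p = 0.131) nor DESeq2 (adjusted p = 0.112) called it with the block. Ltbp1, the main carrier of latent TGF-β, was at 42.1, 41.7 and 151.7 CPM against 157.5, 215.2 and 554.2 CPM and fell by 2.04 ± 0.14 (adjusted p = 0.00016). Ltbp3, another carrier, rose by 0.62 (adjusted p = 0.015). The LTBP family thus held 2 genes that rose (Ltbp2 and Ltbp3), 1 that fell (Ltbp1) and Ltbp4, which was not called.

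Lysyl oxidases crosslink elastin and collagen. Loxl1, the member linked to elastic fibers, was at 1471, 1307 and 995 CPM in CD34- and 750.5, 934 and 719 CPM in CD34+ CAFs and rose by 0.64 ± 0.14 (log2, SE, adjusted p = 0.0242). Loxl3 rose by 1.29 (adjusted p = 0.0028), Loxl2 fell by 0.63 (adjusted p = 0.0227) and Loxl4 fell by 1.25 (adjusted p = 0.0031). In edgeR with the block neither Loxl1 (adjusted p = 0.0919) nor Loxl2 (adjusted p = 0.0837) was called. Per gene length, Loxl2 per Loxl1 was 0.19, 0.29 and 0.25 in CD34- CAFs and 0.49, 0.64 and 0.63 in CD34+ CAFs. Lox, the most abundant of the 5, was not called.

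Of the 8 ADAMTS and ADAMTS-like genes that are linked to microfibrils, Adamts6 rose by 1.18 (adjusted p = 0.0152), or by 0.77 without tumor 3 (in edgeR with the block its adjusted p was 0.0813), Adamtsl5 rose by 1.09 (adjusted p = 0.0091) and Adamtsl4, at 5.4 to 10.8 CPM in CD34- against 29.7 to 102.1 CPM in CD34+ CAFs, fell by 2.75 (adjusted p = 0.0036), with values of -3.38 without tumor 1 and -2.06 without tumor 3. Among 9 integrin subunits that bind fibrillins or fibulins, Itgb5 was at 1332, 1301 and 1041 CPM in CD34- CAFs and at 572, 536 and 307 CPM in CD34+ CAFs. It rose by 1.42 ± 0.14 (log2, SE, adjusted p = 0.00085), and Itga8 rose by 1.40 (adjusted p = 0.0072). Itgb3, the other β partner of the αv chain in this list to be called, fell by 0.99 (adjusted p = 0.005), and Itgav itself was level (0.03). Of the 6 tested elastin-degrading proteases, limma-voom with the block called 0, with 2 at an unadjusted p under 0.05, beside 3460 of all 14855 genes. Mmp2, a gelatinase, was the most abundant, at 3194 to 5355 CPM in CD34- and 2503 to 3428 CPM in CD34+ CAFs, followed by the cathepsin Ctsk at 926 to 1340 and 695 to 1214 CPM. Of the elastin receptor complex, Ctsa, its protective lysosomal subunit, rose by 0.53 (adjusted p = 0.0337), and Glb1 had a log2 fold change of 0.15 (adjusted p = 0.622).

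**Figure D5:**
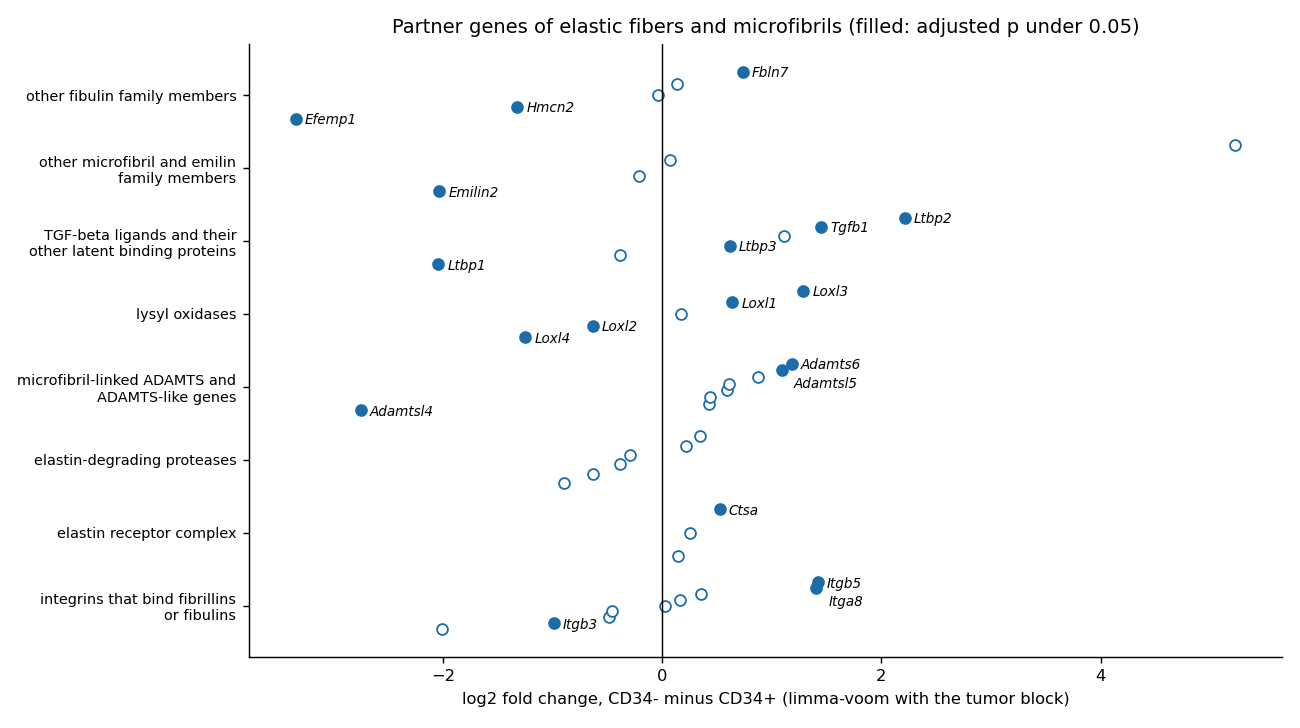
Log2 fold change, CD34- minus CD34+, of the 46 tested partner genes by list, from limma-voom with the tumor block, with filled and named points for the 19 called genes. The open point furthest to the right is Mmrn2, at 1.21 CPM at most. Efemp1, Emilin2, Ltbp1, Loxl4 and Itgb3 lie to the left of 0 in lists where relatives lie to the right or, for Emilin2, where Emilin1 rose.

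Markers of other cells were set beside these results. The summed CPM of 7 pericyte and vascular smooth muscle markers was 218 to 241 in CD34- CAFs and 87.6 to 195 in CD34+ CAFs, higher in all 3 tumors as were Fbln1, Mfap4 and Emilin1. Mcam, Notch3 and Cspg4 (84.5 to 129.4 CPM against 12.9 to 44.0 CPM) were called higher with the block and Abcc9 and Kcnj8 lower. Rgs5 (4.08, 3.72 and 10.7 CPM against 1.18, 1.03 and 0.25 CPM) was higher in the CD34- library of each tumor. So was Myh11 (7.07, 5.56 and 23.1 CPM against 6.75, 0.85 and 0.49 CPM). Neither was called (limma-voom with the block, adjusted p = 0.0803 and 0.0960). The part of these 7 markers in the differences was not tested. Of the fibroblast markers, Dcn and Lum, which encode matrix proteoglycans, fell by 1.12 and 0.73 (log2, limma-voom with the block, adjusted p = 0.0015 and 0.014). Col1a2 (0.35), Pdgfra (-0.15) and Igfbp5 (-0.82) were not called in that fit (limma-voom adjusted p = 0.271, 0.508 and 0.0717). The 5 epithelial markers summed to 46.8 to 139.6 CPM in CD34- and 16.3 to 128.0 CPM in CD34+ CAFs, led by Krt8, with a higher sum in the CD34- library of each tumor, and their part was not tested either. Sums of endothelial (Kdr highest), macrophage (Fcgr2b), Schwann (Mbp), keratinocyte (Krt10) and skeletal muscle (Des) markers were between 1.05 and 27.4 CPM in every library, with Myf5 at 0 throughout. Schwann sums were higher in the CD34- library of each tumor (14.8, 19.8 and 22.0 CPM against 12.1, 11.4 and 7.2 CPM), as were skeletal muscle sums (2.97 to 13.3 CPM against 1.52 to 1.86 CPM). Skeletal muscle sums in CD34- CAFs were nearly all Des (2.85, 4.63 and 13.1 CPM), while the mean of Acta1 was lower in CD34- than in CD34+ CAFs (0.22 against 0.54 CPM). Keratinocyte sums were lower in the CD34- library of each tumor (3.85, 3.48 and 1.05 CPM against 10.2, 7.11 and 10.8 CPM). With the block, limma-voom called Des higher (log2 fold change 2.32, adjusted p = 0.0362) and Krtdap lower (-6.58, adjusted p = 0.0215; at most 0.044 CPM in CD34- CAFs), and the part of these markers was not tested.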

How the data were processed

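Gene-wise counts were deposited by the authors for 6 libraries (polyA RNA, TruSeq RNA v2), made by aligning reads to GRCm38/mm10 and counting them per gene with featureCounts of Rsubread. Strand and multimapping settings are not given in the sources used here. In the RefSeq annotation Eln, Fbn2 and Ltbp4 each overlap a long noncoding RNA gene that the count table does not list, so reads of both cannot be told apart there. Gene lengths are the deposited exonic lengths, and RPKM was computed from them.

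Genes were filtered (filterByExpr, minimum count 10), scaled by TMM and tested by limma-voom (limma 3.58.1, edgeR 4.0.16, R 4.3.3) between 3 CD34- and 3 CD34+ libraries, with Benjamini-Hochberg adjustment over 14855 genes at 0.05. This main fit had no tumor term. Both fractions of a tumor share its number in the labels, and their deviations from the group means correlated (0.37, 0.35 and 0.22 in tumors 1 to 3), so values with the tumor as a replicate block are given beside the main ones. Whether each tumor came from a separate mouse is not stated. P-values without the block set the difference between fractions against the spread among the libraries of a fraction. Those with the block set it against how that difference varied over these tumors. In limma-voom both spreads were moderated by the variance estimated over all genes. Libraries of a group differed by more than sampling noise. Alternatives were edgeR, DESeq2 1.42.0, other scaling and filtering, sample weights, thinned counts and left-out libraries. All methods were also run on counts simulated from a fit with the tumor block. That setting favors the blocked fits, so it cannot show which fit is right for these data. The members and gene lists were chosen with earlier results of these data known. Text names all 10 genes, partner genes called in either fit (otherwise the most expressed until 2 per list are named), Cd34 and the most expressed marker of each list.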

Additional observations from a re-analysis of the deposited data

How the results depend on the processing

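The replicate block moved the calls most: the 10 genes went from 0 to 3, the partner genes from 0 to 19 and all genes from 18 to 1273. Leaving tumor 1, 2 or 3 out of that fit gave 3, 3 and 3 of the 10 genes, 19, 14 and 22 partner genes and 1134, 851 and 2019 of all genes. Of the 10 genes, partner genes and all genes, edgeR with the replicate block called 2, 13 and 575, DESeq2 called 1, 8 and 698, DESeq2 with the block 3, 20 and 1733, and counts thinned to the smallest library with the block 3, 18 and 1028. Sample weights called 3 partner genes and 161 of all genes, edgeR without the block called 9 of all genes, and library size scaling called 32. With libraries or tumors left out of the fit without the block, 0 to 86 of all genes, 0 to 2 partner genes and 0 of the 10 genes were called. The cause of these differences was not tested. The block lowers the residual degrees of freedom from 4 to 2. Leaving a tumor out of the blocked fit lowers them further, so calls of those fits lean more on the variance estimated over all genes.

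The direction of Fbln1, Mfap4, Emilin1, Eln and Fbn1 was kept under every alternative run, and the median of the 10 genes stayed above 0 (0.04 to 0.32). The log2 fold changes of uncalled genes turned when libraries or tumors were left out, over ranges of -0.14 to 0.21 for Fbn2, -0.024 to 0.46 for Fbln2, -0.10 to 0.47 for Fbln5, -0.22 to 0.030 for Mfap5 and -0.76 to 0.23 for Ltbp4. In the replicate block fit Fbn2 was -0.062 without tumor 1 and -0.061 without tumor 3, Fbln5 was -0.041 without tumor 3, and Ltbp4 was 0.020 without tumor 1. With sample weights Mfap5 was 0.032.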
